A study of Caenorhabditis elegans with 8 samples.

Results

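The 7 genes described here encode subunits of the machinery that carries new proteins into the endoplasmic reticulum (ER) and attaches sugar chains to them, and they were taken by name from a table of 20505 coding sequences (CDS). Of these, 2 belong to the Sec61 translocon, sec-61.A (Y57G11C.15) and sec-61.G (F32D8.6). The other 5 belong to the oligosaccharyltransferase: stt-3 (T12A2.2), ribo-1 (T22D1.4), ostb-1 (T09A5.11), ostd-1 (M01A10.3) and dad-1 (F57B10.10). All 7 had reads in every library and passed the filter on low values. Ribosome profiling, which reads the short mRNA pieces left inside translating ribosomes after nuclease treatment, was done in 8 libraries of whole worms of the C. elegans strain N2, hatched from an egg preparation and fed NA22 bacteria on NGM plates.

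Young adults gave 4 libraries, which crossed the isolation of monosomes (single ribosomes with their fragment) on a sucrose gradient or on a MicroSpin S-400 HR gel filtration column with a library made by the submitters' own protocol (in-house) or with the ARTseq kit. Worms at larval stage 4 (L4) gave the remaining 4, which differed in the gel window cut out for the fragments. No label ties a numbered L4 column to a window or names how its monosomes were isolated, so the L4 libraries go by number, 5 to 8. Each of the 4 young-adult combinations had 1 library, and the titles of all 4 shared the same number. The p-values of the young-adult comparisons are therefore taken to measure technical spread, with no biological replicate. Those of the stage comparison also take in differences among the L4 libraries, which differed in gel window. The values are RPKM, that is reads divided by the feature's length and by the library's total, and no matched mRNA library was used here. A lower value in a whole worm may mean fewer cells that translate the mRNA or fewer ribosomes per cell. It may also mean more reads of other genes in the library's total. These cannot be told apart.

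Library totals recovered from the RPKM steps ran from 18018744 to 38132794 reads in the young adults and from 3684924 to 26078844 in the L4 libraries. The 7 genes held between 215 reads (dad-1 in library 8) and 51147 reads (sec-61.A in the in-house column library). The 95% Poisson interval, which covers counting error only, reached ±13.6% for the former and ±0.868% for the latter. Library 8 went against its stage label. The yolk protein gene vit-2 stood at 4506 RPKM in it. In the young adults vit-2 stood at 4144 to 4571 and in libraries 5 to 7 at 10.6 to 11.1. The cuticle collagen gene rol-6 stood at 3.11 RPKM in library 8. Its range was 0.351 to 0.764 in the young adults and 446 to 599 in libraries 5 to 7. All 6 yolk protein genes and both cuticle collagen genes, rol-6 and sqt-1, placed library 8 on the young-adult side. Stage comparisons are therefore given with and without it, while the likeness of patterns was computed over all 8 libraries only.

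As background, secreted and membrane proteins enter the ER through the Sec61 channel while they are being made, on ribosomes docked at the membrane. SEC-61.A corresponds to the alpha subunit, the membrane-spanning pore itself, and SEC-61.G to the small gamma subunit, which clamps the pore from the side. The oligosaccharyltransferase sits beside the channel and transfers a preassembled sugar chain from a lipid carrier to asparagine residues of the incoming protein. STT-3 is its catalytic subunit, RIBO-1 and OSTD-1 correspond to ribophorins I and II, OSTB-1 to the OST48 subunit and DAD-1 to the small subunit DAD1. RPKM is per length, and levels of different subunits are set side by side here on that basis. Division by length does not remove the differences between genes that came with isolation and preparation, which are given below.

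The translocon genes carried more fragments per length than the oligosaccharyltransferase genes in every library. Sec-61.A stood at 933 RPKM in the in-house gradient library, 1383 in in-house column, 773 in kit gradient and 1119 in kit column. It stood at 971, 1018, 841 and 781 RPKM in libraries 5 to 8. Its level was highest in the column libraries, and the L4 libraries lay within the range of the young adults. The level of sec-61.A was 3.65 to 8.43 times the median of the 5 oligosaccharyltransferase genes of the same library.

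Sec-61.G stood at 1949 RPKM in the in-house gradient library, 1463 in in-house column, 1157 in kit gradient and 949 in kit column. In libraries 5 to 8 it stood at 1743, 2055, 1479 and 1326 RPKM. It was above sec-61.A in every library but kit column, where it was below. The ratio of sec-61.A to sec-61.G was 0.479 and 0.668 in the gradient libraries, in-house and kit, and 0.946 and 1.18 in the column libraries. In libraries 5 to 8 the ratio was 0.557, 0.496, 0.569 and 0.589.

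Among the oligosaccharyltransferase genes stt-3 varied most between the young-adult libraries. It stood at 73.1 RPKM in in-house gradient, 146 in in-house column, 90.7 in kit gradient and 190 in kit column. Libraries 5 to 8 gave 73.9, 77.0, 66.1 and 62.7 RPKM. Both column libraries were thus above all 6 others, and no L4 library was above the kit gradient library.

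The other 4 oligosaccharyltransferase genes lay close together. Over the 4 young adults ostb-1 stood at 220 ± 19.2 RPKM (SD, n = 4 libraries), ribo-1 at 186 ± 13.8, dad-1 at 184 ± 15.7 and ostd-1 at 163 ± 17.1. In that order the means of ribo-1 and dad-1 differed by less than either SD, and the other neighbours by more than either SD. The highest of the 4 was 1.22 to 1.41 times the lowest in any young-adult library, 1.56 to 1.74 times in libraries 5 to 7 and 1.15 times in library 8.

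**Figure D1:**
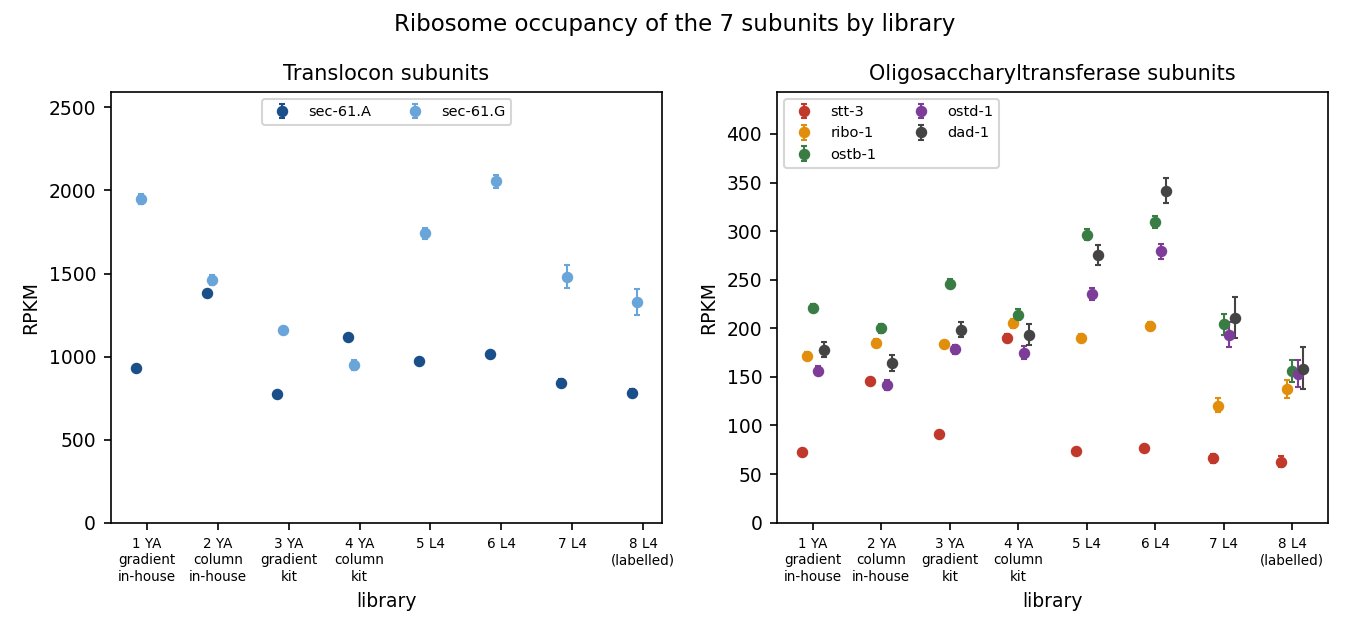
RPKM of each subunit gene in the 8 libraries, on linear axes from 0, for the translocon (left) and the oligosaccharyltransferase (right); bars are 95% Poisson intervals of the reads and cover counting error only. The stt-3 points of the column libraries, 146 and 190 RPKM, stand above its 6 other points, 62.7 to 90.7, and sec-61.A lies above sec-61.G in kit column alone.

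Isolation on the column was set against the gradient within the young adults, to ask how far the way of collecting monosomes alters what is measured. The column gave higher values of stt-3, sec-61.A and ribo-1 and lower values of sec-61.G and ostb-1. In limma (two-sided, log2(RPKM + 1), library preparation in the model, Benjamini-Hochberg adjustment over 11569 CDS) 3 of the 7 were called higher, where 19.8% of all tested CDS were, and 2 lower, where 19.2% were. Over all CDS limma called 2292 higher and 2219 lower, or 1701 and 2703 with median centring of each library, where 2 of the 7 were called in each direction. The median difference over the 7 was -0.08, against 0.02 over all tested CDS.

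The catalytic subunit gene stt-3 rose by 1.02 on the log2 scale (SE 0.04, limma adjusted p = 0.00355), the 8th largest rise among the 11569. Within the in-house libraries the column value was 2.00 times the gradient value (95% interval of the read ratio 1.93 to 2.06), and within the kit libraries 2.10 times (2.03 to 2.16). The interval covers counting error only. The rise was of similar size with both preparations, and the groups did not overlap.

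The pore gene sec-61.A rose by 0.55 (SE 0.03, limma adjusted p = 0.00355), with ratios of 1.48 in-house and 1.45 with the kit. Its small partner sec-61.G fell by 0.35 (SE 0.04, limma adjusted p = 0.00426), with ratios of 0.751 and 0.820. The column and gradient libraries overlapped in raw RPKM for sec-61.G, because its kit values were lower than its in-house values under both isolations; within each preparation the column was lower. The translocon genes thus moved in opposite directions on the log2 scale in both matched pairs.

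Ribo-1 rose by 0.13 (SE 0.04, limma adjusted p = 0.0430), from 172 and 184 RPKM on the gradient, in-house and kit, to 185 and 205 on the column. This call was lost with median centring (0.08, limma adjusted p = 0.167) and with the trend on feature length removed (0.02, limma adjusted p = 0.760), and also with no filter on low values (limma adjusted p = 0.0530) and with no abundance trend (limma adjusted p = 0.167). Ostb-1 fell by 0.17 (SE 0.04, limma adjusted p = 0.0208), from 221 and 246 RPKM to 199.97 and 214. Its call was lost with quantile normalization (-0.13, limma adjusted p = 0.0559) and with no abundance trend (limma adjusted p = 0.109).

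Ostd-1 and dad-1 did not pass. Ostd-1 stood at 156 and 178 RPKM on the gradient and at 142 and 175 on the column (log2 difference -0.08, SE 0.04, limma adjusted p = 0.186). Dad-1 stood at 178 and 199 RPKM on the gradient and at 164 and 193 on the column (-0.08, SE 0.04, limma adjusted p = 0.182). In both genes the gradient and column libraries overlapped.

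The calls rest on a model with 1 residual degree of freedom per CDS. With the preparation term dropped, 0 of the 7 were called, and limma called 0 of 11569 CDS (1651 at an unadjusted p under 0.05). The log2 differences are the same in that fit. Voom on the recovered reads, with the preparation term kept, also called 3 of the 7 higher and 2 lower, where it called 2969 and 2462 of all 11569.

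The balance among the oligosaccharyltransferase genes differed between the isolations. On the gradient stt-3 stood at 0.425 times the median of the 5 genes in-house and at 0.494 times with the kit. On the column the same ratio was 0.889 and 0.982. The highest of the 5 was 3.02 and 2.71 times the lowest on the gradient, where stt-3 was lowest, and 1.41 and 1.22 times on the column, where ostd-1 was. In libraries 5 to 8 stt-3 was lowest again, at 0.315, 0.276, 0.342 and 0.410 times the median.

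**Figure D2:**
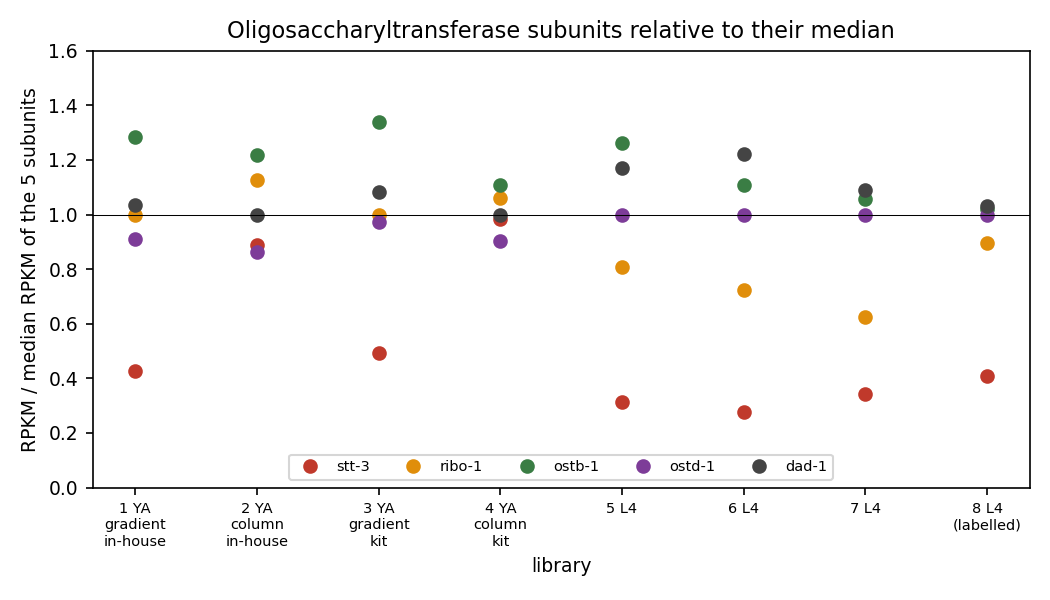
RPKM of each of the 5 oligosaccharyltransferase genes divided by their median in the same library, on a linear axis from 0. Stt-3 lies at 0.889 and 0.982 in the column libraries and between 0.276 and 0.494 in the other 6, while the remaining genes stay between 0.624 and 1.34.

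Feature length moved with the isolation difference, in the 7 genes and in all CDS. The recovered lengths were 235 bases for sec-61.G, 370 for dad-1, 871 for ostd-1, 1366 for ostb-1, 1450 for sec-61.A, 1761 for ribo-1 and 2302 for stt-3. Across the 7 genes the difference correlated with log2 length at Pearson r = 0.72 (Spearman rho = 0.82), and across all 11569 tested CDS at r = 0.36 (rho = 0.37). These are correlations across genes measured in the same 4 libraries, which are not independent replicates. Over all CDS the median difference was -0.21 for lengths under 300 bases, -0.14 from 300 to 600, -0.01 from 600 to 1200, 0.10 from 1200 to 1800, 0.14 from 1800 to 2400 and 0.16 above.

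Set beside CDS of their own length, stt-3 and sec-61.A still stood high. Stt-3 lay 0.88 above the median of the 1089 CDS of 1800 to 2400 bases, where it was the only one to reach its difference. Sec-61.A lay 0.45 above the median of its bin and above 97.5% of the 2616 CDS in it. The 5 others lay within 0.27 of their bin's median: ribo-1 0.04 above it, dad-1 0.07 above it, ostd-1 at -0.07, sec-61.G at -0.14 and ostb-1 at -0.27. With a loess trend on length removed from each library, stt-3 was at 0.90 and sec-61.A at 0.46 (limma adjusted p = 0.00515 for each). Sec-61.G went from -0.35 to -0.18 (limma adjusted p = 0.0443), and dad-1 changed sign, to 0.07.

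**Figure D3:**
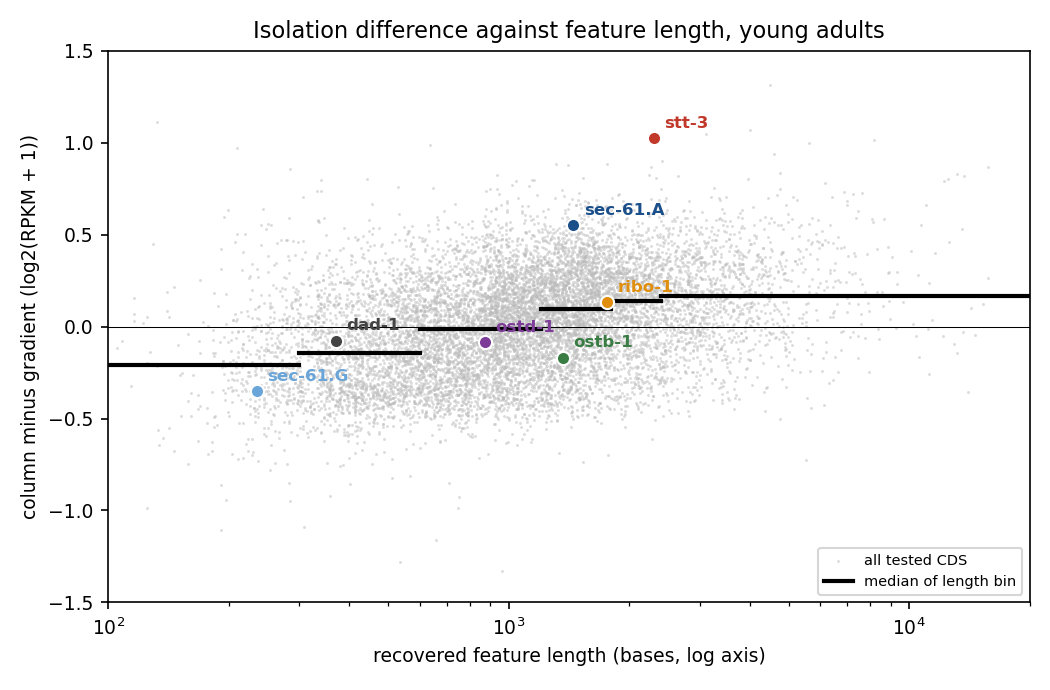
Column minus gradient difference on the log2(RPKM + 1) scale against recovered feature length in bases (log axis) for all tested CDS in young adults (grey; 22 lie outside the axes) and the 7 subunit genes (coloured); black lines are medians of length bins. Stt-3 at 1.02 and sec-61.A at 0.55 lie far above the medians of their bins, 0.14 and 0.10.

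Other genes of the same route were read from 8 lists, in which 39 of 53 symbols matched the table and 38 passed the filter. On the column 25 of the 38 were called higher and 4 lower (limma), against 19.8% and 19.2% of all tested CDS. Their median difference was 0.20. With median centring 16 were called higher and 4 lower, against 14.7% and 23.4%.

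The list with the most calls, which was also the longest, was that of the genes that build the lipid-linked sugar donor of the oligosaccharyltransferase. Of its 13 algn genes 11 were called higher and 0 lower, with a median of 0.43. Voom on the recovered reads also called 11 higher and 0 lower, where it called 2969 and 2462 of all 11569 CDS. Algn-5 stood at 38.9 and 29.6 RPKM on the gradient, in-house and kit, and at 42.9 and 39.9 on the column (log2 difference 0.28, SE 0.08, limma adjusted p = 0.0393). Algn-2 stood at 42.0 and 32.1 RPKM and at 45.8 and 41.3 (0.24, SE 0.07, limma adjusted p = 0.0445). The largest difference in the list, chosen after its value was seen, was that of algn-8, from 6.77 and 6.89 RPKM to 13.05 and 12.4 (0.81, SE 0.07, limma adjusted p = 0.00355). Algn-1 (0.14) and algn-13 (-0.02) did not pass. With the length trend removed 9 of the 13 were called higher, where 1720 of all 11569 CDS were, and all 13 differences were positive.

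The translocon's partners went both ways. Sec-61.B, the third and also small translocon subunit, fell from 1068 and 1112 RPKM to 927 and 831 (-0.31, SE 0.06, limma adjusted p = 0.0120). Tram-1, the membrane protein that lines the translocon's exit, rose from 194 and 214 RPKM to 260 and 274 (0.39, SE 0.04, limma adjusted p = 0.00355). Dnj-29, the Sec63-type partner of the channel, chosen after its value was seen, rose from 49.6 RPKM in both gradient libraries to 72.4 and 73.1 (0.54). Sec-62 did not pass (-0.08).

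Of the 4 genes of the translocon-associated protein complex trap-3 rose (0.15), as did trap-2 and trap-4, and trap-1 fell by 0.11. Of 4 signal peptidase genes, which encode the complex that trims signal sequences, 3 rose and 0 fell, with sec-11 at 0.29 and spcs-2 at 0.19. Of the 6 tested genes for glycan trimming and lectin chaperones 4 rose and 0 fell, with the calreticulin gene crt-1 at 0.20, while the calnexin gene cnx-1 did not pass (0.13, limma adjusted p = 0.0501). Of 10 listed genes of the ER membrane protein complex, which inserts membrane proteins, 5 were matched. These split into 2 higher and 2 lower, with emc-2 at -0.30 and emc-6 at -0.28. Of 7 listed genes of the signal recognition particle and its receptor 1 was matched, srpa-72, which did not pass (0.03). Of 3 further oligosaccharyltransferase genes listed 1 was matched, tmem-258, which encodes another small subunit. It did not pass (-0.14, limma adjusted p = 0.180).

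**Figure D4:**
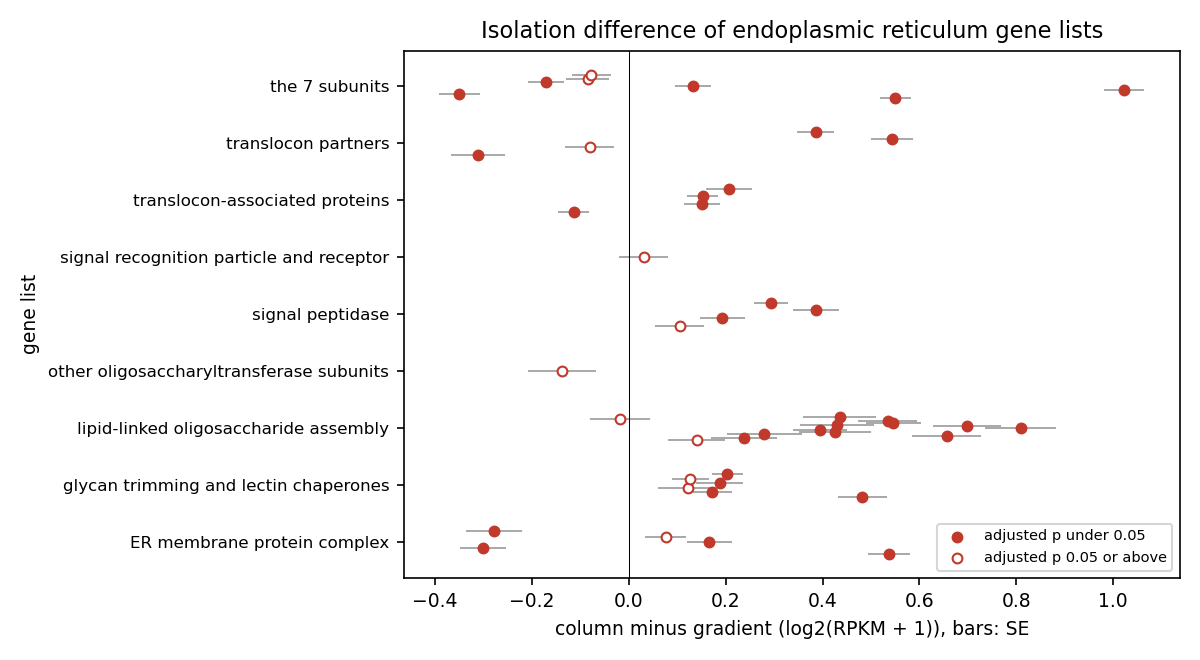
Column minus gradient differences on the log2(RPKM + 1) scale for the 7 subunit genes and the genes of 8 ER lists; bars are SE, filled points have a limma adjusted p under 0.05. Of the lipid-linked oligosaccharide genes 11 of 13 are filled on the right, and the 7 subunits reach from -0.35 (sec-61.G) to 1.02 (stt-3).

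Library preparation was the second factor of the same 4 libraries, and asks how far the protocol that turns fragments into a library alters what is measured. Sec-61.G and sec-61.A were lower in the kit, and stt-3, ostd-1 and dad-1 were higher. Limma called 3 of the 7 higher, against 25.9% of all tested CDS, and 2 lower, against 10.0%. The median of all CDS lay 0.10 higher in the kit. Median centring turned the 2992 higher and 1160 lower CDS into 1663 and 2012, and with it both translocon genes stayed lower, while only stt-3 of these 3 stayed called.

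Sec-61.G fell by 0.69 (SE 0.04, limma adjusted p = 0.000853), the 95th largest fall of 11569 CDS, with kit values 0.594 times the in-house values on the gradient and 0.649 times on the column. Sec-61.A fell by 0.29 (SE 0.03, limma adjusted p = 0.00320), with ratios of 0.828 and 0.809. Leaving out 1 library, which also drops the isolation term, gave differences of -0.89 to -0.48 for sec-61.G. For sec-61.A these were -0.57 without the in-house gradient library, -0.56 without the kit column library, -0.02 without the kit gradient library and -0.0051 without the in-house column library. Each of these fits had 1 library in 1 of its groups, so no calls are given for them.

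Stt-3 rose in the kit by 0.34 (SE 0.04, limma adjusted p = 0.00388), with ratios of 1.24 on the gradient and 1.30 on the column. Ostd-1 differed by 0.24 (SE 0.04, limma adjusted p = 0.0120) and dad-1 by 0.20 (SE 0.04, limma adjusted p = 0.0173). With median centring these were 0.13 (limma adjusted p = 0.0796) and 0.08 (0.180). Ribo-1 and ostb-1 did not pass, at 0.12 and 0.13 (limma adjusted p = 0.0577 and 0.0503), but both passed with voom and with a filter at an RPKM of 10.

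Young adults were set against L4 worms over all 8 libraries as labelled. Stage and experiment cannot be told apart, since each stage came from an experiment of its own. Limma called 0 of the 7 genes in either direction, where 11.1% of all tested CDS were higher and 27.6% lower in young adults. At an unadjusted p under 0.05 there was 1 of the 7, stt-3, where 7092 of all 13592 CDS were. Voom called 0 of the 7, where it called 2337 CDS higher and 5318 lower. Over all CDS limma called 1507 higher and 3757 lower, or 2955 and 2148 with median centring, where stt-3 and ribo-1 were called higher. The stt-3 difference was 0.73 (SE 0.29, limma adjusted p = 0.0699).

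Without library 8, ostd-1 and dad-1 were lower in young adults, 2 of 7 against 46.6% of all tested CDS, and 0 were called higher, against 22.7%. Ostd-1 stood at 235, 279 and 193 RPKM in libraries 5 to 7, all above the young-adult range of 142 to 178 (-0.52, SE 0.16, limma adjusted p = 0.0129). Dad-1 stood at 275, 341 and 210 RPKM in them, above the young-adult range of 164 to 199 (-0.56, SE 0.17, limma adjusted p = 0.0140). In library 8 they stood at 153 and 158 RPKM. The median of all CDS lay 0.34 lower in young adults. Median centring turned the 3059 higher and 6293 lower CDS into 4937 and 4171. With it neither call held (-0.12 and -0.16), and stt-3 (1.08), ribo-1 (0.56) and sec-61.A (0.53) were called higher (limma adjusted p = 0.00476, 0.0160 and 0.0400). Without library 6 neither held (limma adjusted p = 0.0677 for ostd-1 and 0.0712 for dad-1).

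The stage difference of stt-3 moved with the isolation of the young adults. Without library 8 it was 0.68 (SE 0.29, limma adjusted p = 0.0550) over both isolations. With the column young adults alone it was 1.19 (limma adjusted p = 0.000831). With the gradient young adults alone it was 0.17 (limma adjusted p = 0.364), and stt-3 stood there at 73.1 and 90.7 RPKM against 66.1 to 77.0 in libraries 5 to 7, groups that overlapped. Sec-61.A did not pass over both isolations (0.13, limma adjusted p = 0.575) and had the opposite sign with the gradient libraries alone (-0.15).

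Ribo-1 stood at 190, 202 and 121 RPKM in libraries 5 to 7 and 137 in library 8 (stage difference without library 8 0.16, limma adjusted p = 0.462). Ostb-1 stood at 296, 309 and 204 RPKM and 156 (-0.27, limma adjusted p = 0.166), and sec-61.G differed by -0.39 (limma adjusted p = 0.164). None of these passed. All 7 genes were lower in library 7 than in libraries 5 and 6, in values not centred by library. The share of all CDS lower there was not counted. Genes of the ER lists read below went both ways: sec-61.B stood at 2766 RPKM in library 7 against 2141 and 1987, and tram-1 at 87.1 against 160 and 187. Each gel window had 1 library, so the differences among L4 libraries have no replicate check.

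Patterns over the 8 libraries were compared by the Euclidean distance between log2(RPKM + 1) values centred on each gene's mean, among 6706 CDS with a mean RPKM of at least 10. Library 8 was included, and the distances were not computed without it. Dad-1 and ostd-1 were each other's nearest CDS (distance 0.20). Ostb-1 ranked 62nd from dad-1 and dad-1 ranked 43rd from ostb-1. Stt-3 had no near neighbour among the other subunits: the closest, sec-61.A, ranked 357th of 6705 at a distance of 1.10. The CDS nearest to stt-3 were C56E6.9 (0.43), the ABC transporter gene haf-2 (0.47) and nte-1 (0.48). Nearest to sec-61.A were mct-5 (0.19), eelo-2 (0.24) and the initiation factor gene egl-45 (0.25), and nearest to sec-61.G C24D10.4 (0.31), T16A9.5 (0.39) and rbm-34 (0.42). Ribo-1 lay nearest to the coatomer gene cope-1 (0.21), ncl-1 (0.22) and C35D10.1 (0.24), and ostb-1 to K09H9.5 (0.27), C46A5.6 (0.29) and mma-1 (0.34). The next after the pair were rga-1 (0.21) and F44D12.2 (0.24) for ostd-1 and rga-1 (0.24) and K07F5.15 (0.26) for dad-1.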

How the data were processed

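The deposited values are RPKM, 1 per CDS and library. Per the submitters' processing notes, the tools were STAR 2.4, Bowtie2 2.2.4 and bcl2fastq 1.8.4, with no roles stated. Not given in the sources used here are genome build, annotation and the treatment of multiply mapped reads. The spacing of RPKM values gave back whole reads, lengths and library totals (Python 3.11.15, numpy 2.4.6, pandas 2.3.3): 19649 CDS were whole within 0.0001 in every library, and the other 856 were at 0 throughout. The smallest length that made a CDS whole was kept. Where its reads share a divisor, length and reads are a fraction of the true ones, in the length bins, the length trend and voom too. Of 9200 CDS with at least 200 reads in a library, 75.0% had lengths that leave 1 when divided by 3, so they are called feature lengths. RefSeq WBcel235 symbols matched 20051 CDS and not 454; coordinates and sequences were not used here, and 1 listed gene is not reported here.

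CDS under an RPKM of 1 in all libraries of a fit, or above it in only 1, were left out. Values were tested as log2(RPKM + 1) with limma 3.58.1 (R 4.3.3; lmFit, eBayes with an abundance trend, Benjamini-Hochberg threshold 0.05) after checks on simulated data. The pseudocount of 1 understates changes of low genes. Genes, lists and tests were chosen with earlier results of these data known. Named were the 7 genes, stage markers, up to 2 genes per list with the highest mean RPKM, the 3 nearest CDS per gene, and those said to be chosen after their values were seen. Sec-62, trap-2, trap-4, algn-1 and algn-13 were also named, as the rest of a list or as its genes that did not pass. Alternatives were pseudocounts of 0.1 and 5, no filter or one at an RPKM of 10, median centring, quantile normalization, no abundance trend, voom on recovered reads, removal of a length trend, dropped model terms, subsets of young adults, and leaving out each library. The 7-library stage fit's alternatives were added after seeing the data. Depth limits the precision of libraries 7 and 8 most.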

Additional observations from a re-analysis of the deposited data

How the results depend on the processing

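For column against gradient, the calls of stt-3, sec-61.A and sec-61.G held under every alternative that kept the preparation term. The count called lower was 1 with quantile normalization and with no abundance trend, where 2257 and 1430 of all 11569 CDS were. With the preparation term dropped, 0 were called higher and 0 lower. In that fit 0 of the lipid-linked oligosaccharide genes and 0 of all 11569 CDS were called. Leaving out each library in turn also drops that term and leaves 1 library in 1 group. Only differences are given for those fits. Those 3-library differences ran from -0.196 to 0.041 for dad-1, from -0.235 to 0.0661 for ostd-1 and from -0.726 to 0.0257 for sec-61.G; dad-1 was 0.0666 with the length trend removed. For the kit, the count called higher was 5 with a filter at an RPKM of 10, where 2396 of all 6197 CDS were. It was also 5 with voom, where 3913 of all 11569 were. It was 1 with median centring (1663 of all CDS), quantile normalization (1795), no abundance trend (1994) or the length trend removed (1774). With the isolation term dropped 0 were called higher and 0 lower, where 5 and 1 of all CDS were. Leaving out a library gave stt-3 differences from -0.19 to 0.87. For stage over 8 libraries, 2 were higher with median centring (stt-3, ribo-1), 1 with quantile normalization and 1 with the length trend removed. Over all 13592 CDS the counts higher were 2955, 2721 and 2443. Leaving out a library gave 0 to 1 higher and 0 to 2 lower, where 77 to 3059 and 304 to 6293 of all CDS were. Signs turned for dad-1 (0.0632, length trend removed), ostb-1 (0.25 with median centring, 0.11 with quantile normalization, 0.14 with the length trend removed, -0.273 to 0.0547 without a library) and sec-61.G (0.0412 with median centring, 0.21 with the length trend removed, 0.0524 with in-house young adults only). Without library 8, the counts higher and lower were 3 and 0 with median centring, where 4937 and 4171 of all 13494 CDS were called. They were 1 and 0 with quantile normalization (4788 and 4138 of all CDS) or the length trend removed (4542 and 4575). They were 1 and 2 with voom (3042 and 6490) or a filter at 10 (2077 and 3336 of 7781). With column young adults only they were 1 and 1 (2779 and 5738 of 13352), and with gradient ones 0 and 0 (2546 and 5672 of 13335). Leaving out a further library gave 0 to 1 higher and 0 to 3 lower, where 2741 to 3029 and 5533 to 6268 of all CDS were. Signs turned there for ostb-1 (0.13 with median centring, 0.0066 with the length trend removed), sec-61.G (0.0116 and 0.262), sec-61.A (-0.15 with gradient young adults only, -0.014 to 0.266 without a library) and ribo-1 (-0.0768 to 0.295 without a library). The cause of these changes was not tested. Counting error limits libraries 7 and 8, with 215 to 6100 reads per subunit gene.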

Other observations

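The ER lists were also read by stage. Without library 8, 6 of their 39 tested genes were higher in young adults (limma), against 22.7% of all tested CDS, and 13 lower, against 46.6%. With median centring of each library, an alternative chosen after seeing the data, 13 were higher, against 36.6%, and 9 lower, against 30.9%. The calreticulin gene crt-1 fell by 1.82 from L4 to young adults (SE 0.19, limma adjusted p = 1.12e-05) and the translocon subunit gene sec-61.B by 1.22 (SE 0.17, limma adjusted p = 9.28e-05). Sec-61.B stood at 2141, 1987 and 2766 RPKM in libraries 5 to 7, at 1070 in library 8 and at 831 to 1112 in the young adults. Trap-3 (-0.92), the signal recognition gene srpa-72 (-0.90), tmem-258 (-0.75) and emc-6 (-0.71) were lower too. The translocon partner tram-1 was higher (0.76), as were algn-2 (0.75) and the calnexin gene cnx-1 (0.37). With library 8 kept as labelled, limma called 0 of the 39 higher, against 11.1% of all tested CDS, and 7 lower, against 27.6%. At an unadjusted p under 0.05 these were 3 and 10, where 7092 of all 13592 CDS were under it in either direction. Voom called 3 and 9, where it called 2337 and 5318 of all 13592 CDS.

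In the kit 10 of the 38 tested list genes were higher (limma), against 25.9% of all tested CDS, and 10 lower, against 10.0%. With median centring 5 were higher, against 14.4%, and 15 lower, against 17.4%. Trap-1 (-0.28), crt-1 (-0.20), spcs-2 (-0.19), srpa-72 (-0.19), trap-3 (-0.18) and sec-11 (-0.18) were lower there, as was algn-2 (-0.26). Tmem-258 did not pass (-0.17, limma adjusted p = 0.112). Cnx-1 did not pass either, at 0.02.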
